A study of Mus musculus with 9 samples.

Results

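The genes described here are enzymes that make cholesterol, proteins that sense sterols through the transcription factor SREBP2, and genes of cholesterol uptake, transfer and esterification. They are a named list of 29 genes, of the 33211 genes in the deposited table, and were matched by gene symbol. Of these, 28 were found under the listed symbol, and Msmo1 was found under its older symbol Sc4mol by its Ensembl identifier ENSMUSG00000031604. All 29 passed the filter on low counts. Liver RNA was sequenced from C57BL/6 mice, given as wild-type C57BL6/J in the methods of the study, fed a high-fat diet (HFD) kept in a freezer (HFDfre, 5 libraries) or in a fridge (HFDfri, 4 libraries). Per the methods of the study, the animals were male and 8 weeks old at the start and received the diets for 7 weeks. Opened diet was kept at -20 °C or at 4 °C for 7 days before use, and both arms came from the same product. There was no arm on a normal diet. The hour of tissue collection and the feeding state of the animals were not given in the sources used here.

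Cholesterol is built from acetyl-CoA in the cytosol and the endoplasmic reticulum. The mevalonate steps give isoprenoid diphosphates, squalene synthase and squalene epoxidase commit them to sterols, and a series of reductions, oxidations and an isomerisation turns lanosterol into cholesterol. When sterols in the endoplasmic reticulum run low, SCAP carries SREBP2 to the Golgi apparatus, where it is cleaved into a transcription factor for these same enzymes. INSIG proteins hold SCAP back when sterols are plentiful. The liver is a main site of this synthesis in the body.

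SREBP2 binds short sterol regulatory elements in promoters, commonly beside a CCAAT box bound by NF-Y. RefSeq promoter windows (GRCm38.p6, 250 bases before to 50 after a start) were given for 23 of the 29 genes. The letters searched on both strands were TCACNNCA, which covers many sterol regulatory elements, the more exact TCACNCCAC, whose every match is also a match of TCACNNCA, and CCAAT. TCACNNCA was present for 10 of the 23 genes (43.5%), against 15.7% of all genes with a window and 13.8% of all windows of that length. CCAAT was present for 21 (91.3%), against 41.1% of genes and 37.4% of windows. TCACNCCAC was present for Hmgcs1 alone among the 23, against 1.44% of genes and 1.24% of windows. Genes can have more than 1 window. These counts are a description of letters and show no binding. Of the 10 genes with an unadjusted p under 0.05 described below, 7 had a window, and 5 of those 7 held TCACNNCA (Pmvk, Cyp51, Msmo1, Hsd17b7 and Dhcr7). Among the other 16 genes with a window, 5 held it (Hmgcs1, Nsdhl, Sc5d, Srebf2 and Insig2). CCAAT was held by 6 of the 7 and by 15 of the 16, and TCACNCCAC by 0 of the 7 and 1 of the 16. Sqle, Fdps and Stard4, also among the 10, had no window. A link between these letters and the differences was not tested.

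The stretches of window that lie before the annotated transcripts are shown for 4 genes that the results contrast. Cyp51 and Hsd17b7 did not overlap between the diets, Srebf2 encodes the regulator, and Hmgcs1, an enzyme early in the pathway, was on average lower in HFDfri. Capitals mark TCACNNCA and CCAAT on either strand. They lie at chr5:4104747-4104947 (minus strand), chr1:169969242-169969455 (minus), chr15:82147019-82147180 (plus) and chr13:119690101-119690350 (plus) of GRCm38.
Cyp51: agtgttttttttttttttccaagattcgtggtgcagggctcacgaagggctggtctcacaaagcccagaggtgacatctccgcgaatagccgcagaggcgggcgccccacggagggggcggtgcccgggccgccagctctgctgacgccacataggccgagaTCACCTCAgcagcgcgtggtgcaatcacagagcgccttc
Hsd17b7: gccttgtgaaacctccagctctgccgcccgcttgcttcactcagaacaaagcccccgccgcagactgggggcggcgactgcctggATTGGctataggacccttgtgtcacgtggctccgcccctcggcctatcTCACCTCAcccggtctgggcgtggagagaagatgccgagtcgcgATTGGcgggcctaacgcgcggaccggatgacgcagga
Srebf2: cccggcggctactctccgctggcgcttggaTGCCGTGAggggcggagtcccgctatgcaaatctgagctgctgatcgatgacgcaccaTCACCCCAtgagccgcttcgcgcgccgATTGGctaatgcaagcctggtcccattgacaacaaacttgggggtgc
Hmgcs1: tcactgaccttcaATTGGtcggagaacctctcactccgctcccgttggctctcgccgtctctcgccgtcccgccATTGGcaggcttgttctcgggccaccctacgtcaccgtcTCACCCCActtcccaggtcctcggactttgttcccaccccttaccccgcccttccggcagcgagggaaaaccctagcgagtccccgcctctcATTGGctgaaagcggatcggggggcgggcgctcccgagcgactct
The stretches of Cyp51 and Hsd17b7 both hold TCACCTCA. Those of Srebf2 and Hmgcs1 both hold TCACCCCA, and Srebf2 has a further match on the other strand, TGCCGTGA. In the printed stretches Hmgcs1 has 3 CCAAT matches, Hsd17b7 has 2 and Srebf2 has 1, all read as ATTGG on the printed strand. Hmgcs1 and Hsd17b7 each have a further match in the part of the window that is not printed. The stretch of Cyp51 has 0, and its CCAAT match also lies in the part that is not printed.

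Library totals ran from 58614917 to 69353439 counts, and the make-up of the counts varied between libraries. Gm26924, a gene model that collects ribosomal RNA reads, took 11.1% of the counts of HFDfre 1, 1.20 to 7.50% of the other HFDfre libraries and 0.466 to 5.21% of the HFDfri libraries. Major urinary protein genes took 7.54 ± 1.47% (SD, n = 5) and 12.2 ± 2.40% (SD, n = 4), and mitochondrial genes 15.4 ± 3.04% and 10.6 ± 2.07%, both with an adjusted exact permutation p of 0.0794 over 5 library measures. Levels below are in CPM, the counts per 1000000 counts of a library after scaling by edgeR's trimmed mean of M-values (TMM).

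HFDfri led to higher mRNA of Sqle and Cyp51 in the liver, and to no called decrease among the 29 genes. In edgeR's quasi-likelihood test with Benjamini-Hochberg adjustment over all 14220 tested genes, 2 of the 29 genes passed an adjusted p of 0.05, both higher in HFDfri (6.9%, against 0.499% of all tested genes called higher, 0.556% called lower and 1.05% in either direction). At an unadjusted p under 0.05, 10 were higher (34.5%, against 11.4% of all tested genes) and 0 were lower (against 9.79%). DESeq2 and limma-voom likewise put 0 lower at an unadjusted p under 0.05, while Soat2 was lower at that level in 7 of 21 alternatives and Hmgcs1 in 1, without HFDfri 2. The edgeR adjusted p of Hmgcs1 in that fit was 0.216. The HFDfri libraries were all above the HFDfre libraries for 3 genes, Sqle, Cyp51 and Hsd17b7 (10.3%, against 4.02%), and for no gene were they all below (against 3.66%). The sign of the log2 fold change, given throughout as HFDfri minus HFDfre, was positive for 23 genes and negative for 6, while 49.1% of all tested genes were positive. The median log2 fold change was 0.23, beside -0.0068 over all tested genes. Fewer cells of a type and less RNA per cell cannot be told apart in bulk liver.

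**Figure D1:**
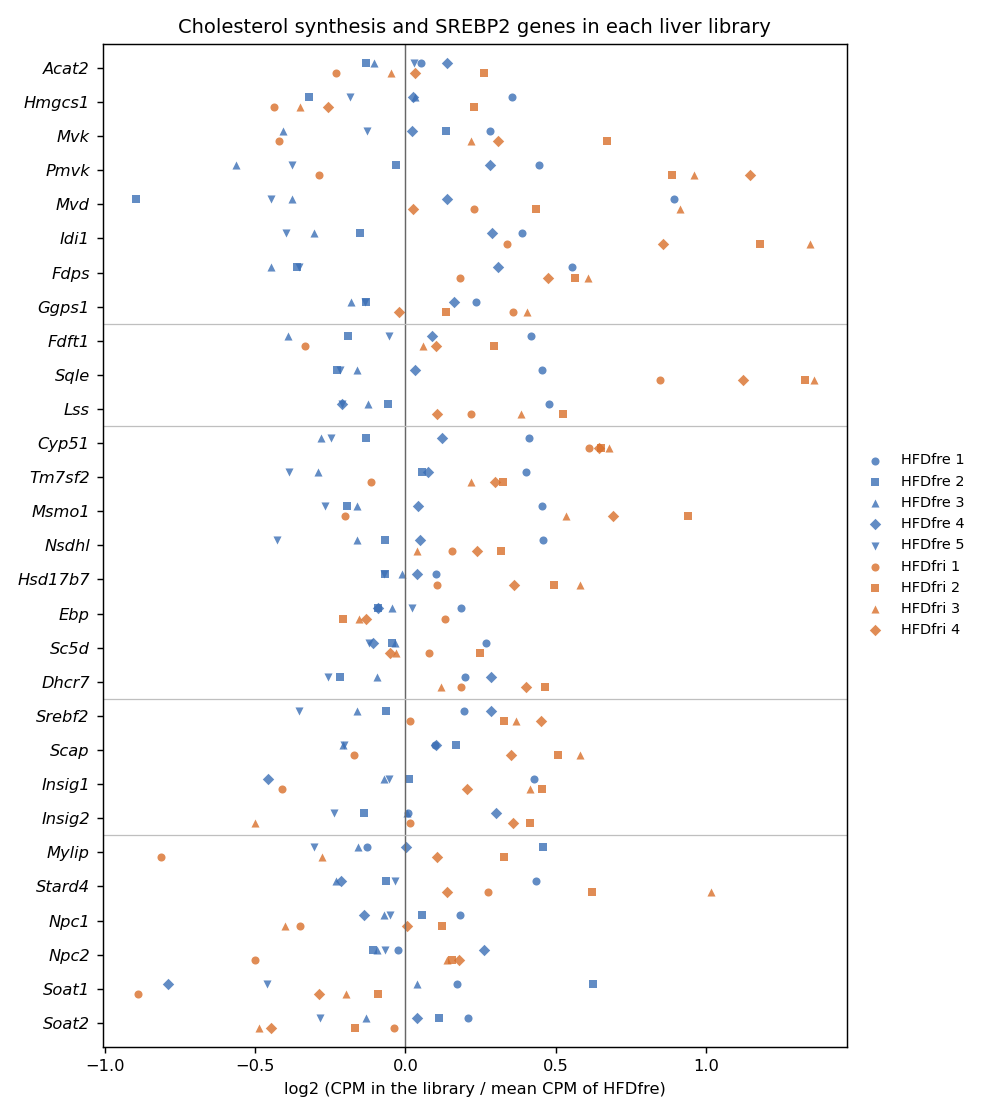
Level of each of the 29 genes in each library, as log2 of its CPM over the mean CPM of HFDfre, in pathway order from top to bottom with lines between the groups of genes. Blue symbols are the 5 HFDfre libraries and orange the 4 HFDfri libraries, with the symbol giving the replicate. Sqle, Cyp51 and Hsd17b7 are the 3 genes whose orange symbols all lie to the right of the blue ones.

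The count of 2 depended on single libraries, as did the count over all tested genes. Of the 29 genes, 0 passed without HFDfre 3, HFDfre 5 or HFDfri 3, where 6, 6 and 10 of all tested genes were called, against 150 with all libraries. The count was 1 without HFDfre 2, HFDfre 4, HFDfri 2 or HFDfri 4, where 51, 46, 235 and 26 of all tested genes were called. It was 2 without HFDfre 1, where 39 were called. Without HFDfri 1 it was 7, where 3.99% of all tested genes were called higher. DESeq2 on the same genes called 6 (Sqle, Cyp51, Idi1, Hsd17b7, Pmvk and Stard4), all higher, against 4.01% of all tested genes. With the Gm26924 share as a covariate, 3 of the 29 genes passed the adjusted threshold (Sqle, Cyp51 and Idi1, against 0.105% of all tested genes called higher), and the median log2 fold change was 0.39. With scaling factors computed without mitochondrial, Mup and Gm26924 genes, 3 also passed, against 0.723%.

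The early enzymes listed act between acetyl-CoA and farnesyl diphosphate, except Ggps1, which lies on a side branch. Of these 8 enzymes, Ggps1 included, 7 had a positive log2 fold change and the median was 0.35. At an unadjusted p under 0.05 there were 3 (Idi1, Pmvk and Fdps), all higher (37.5%, against 11.4% of all tested genes). None passed the adjusted threshold, against 0.499% of all tested genes called higher. DESeq2 called 2 of the 8, Idi1 and Pmvk, against 4.01% of all tested genes called higher.

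Idi1 encodes isopentenyl diphosphate isomerase, which balances the pair of isoprenoid building blocks. Its levels were 32.9, 22.6, 20.4, 30.8 and 19.1 in HFDfre 1 to 5, and 31.8, 57.1, 64.1 and 45.6 CPM in HFDfri 1 to 4. HFDfri 1 lay just below HFDfre 1, and the other 3 HFDfri libraries lay above every HFDfre library. The mean level in HFDfre was 25.2 ± 6.27 CPM (SD, n = 5), and that in HFDfri was 49.6 ± 14.1 CPM (SD, n = 4). The difference on the log2 scale was 0.98 ± 0.21 (SE). The adjusted p was 0.0503 in edgeR and 4.0e-04 in DESeq2.

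Pmvk encodes phosphomevalonate kinase. It was at 9.53, 6.85, 4.74, 8.51 and 5.39 CPM in HFDfre 1 to 5, and at 5.73, 13.0, 13.6 and 15.5 CPM in HFDfri 1 to 4. HFDfri 1 again sat inside the HFDfre range, and the other 3 libraries above it. Pmvk had a log2 fold change of 0.77 ± 0.27 (SE, edgeR adjusted p = 0.147). Leaving out each library gave edgeR adjusted p-values from 0.0235 to 0.342, and Pmvk passed in 1 of the 9 fits, that without HFDfri 1, its lowest HFDfri library.

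Fdps encodes farnesyl diphosphate synthase, whose product feeds sterols as well as prenylation. Its HFDfre libraries spread widely, at 110, 58.3, 54.9, 92.7 and 58.6 CPM, and its HFDfri libraries lay at 84.9, 111, 114 and 104 CPM. The groups overlapped through HFDfre 1 and HFDfre 4. Fdps had a log2 fold change of 0.47 ± 0.20 (SE, edgeR adjusted p = 0.216). Reads from its exons could also belong to the gene model Gm43738 on the same strand.

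The other 5 early enzymes did not pass the unadjusted threshold. Mvd, the mevalonate diphosphate decarboxylase, had a log2 fold change of 0.44 ± 0.31 (SE), with HFDfre libraries from 3.77 to 13.0 CPM and HFDfri libraries from 7.14 to 13.2 CPM. Mvk, mevalonate kinase, was at 0.25 ± 0.20 and Ggps1, which branches off to geranylgeranyl diphosphate, at 0.23 ± 0.15. Acat2, the cytosolic thiolase that opens the pathway, was at 0.02 ± 0.11. Hmgcs1, the hydroxymethylglutaryl-CoA synthase, was the enzyme with the most negative value, -0.18 ± 0.16. Its HFDfre libraries were at 142, 88.9, 113, 113 and 97.7 CPM and its HFDfri libraries at 81.9, 130, 87.2 and 92.8 CPM, so that 3 of the 4 HFDfri libraries lay under the HFDfre mean of 111 CPM.

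Sqle was the gene with the largest log2 fold change of the 29. It encodes squalene epoxidase, the oxygen-requiring enzyme that is a control point of the pathway after mevalonate. It was at 17.8, 11.1, 11.6, 13.3 and 11.2 CPM in HFDfre 1 to 5, and at 23.4, 32.8, 33.4 and 28.4 CPM in HFDfri 1 to 4. All 4 HFDfri libraries lay above all 5 HFDfre libraries, with HFDfri 1 the lowest of its group and HFDfre 1 the highest of its own. Sqle rose 2.27-fold, from a mean of 13.0 ± 2.83 CPM over the 5 HFDfre libraries to 29.5 ± 4.62 CPM over the 4 HFDfri libraries (± SD), and its log2 fold change was 1.18 ± 0.16 (SE, edgeR adjusted p = 0.0147). It was 1 of 21 genes of the 14220 tested (0.148%) that were called higher with a log2 fold change of at least 1. Its log2 fold change lay between 1.12 and 1.31 when each library was left out in turn. The adjusted p was then 0.0539 without HFDfre 3, 0.0705 without HFDfre 5 and 0.0524 without HFDfri 3, and under the threshold in the other 6 fits.

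The enzymes before and after Sqle differed less. Fdft1, squalene synthase, had a log2 fold change of 0.05 ± 0.16 (SE), with HFDfre libraries from 40.4 to 70.9 CPM and HFDfri libraries from 42.1 to 65.2 CPM. Its exons overlap those of Ctsb, an abundant cathepsin gene on the opposite strand, and the use of strand in counting was not given in the sources used here. Lss, lanosterol synthase, had a log2 fold change of 0.32 ± 0.15 (SE, edgeR adjusted p = 0.25), with 15.4 to 24.9 CPM in HFDfre and 19.2 to 25.7 CPM in HFDfri. HFDfre 1 alone reached the HFDfri range for Lss, and the other 4 HFDfre libraries stopped at 17.1 CPM.

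Cyp51 encodes lanosterol demethylase, the cytochrome P450 that takes the first step from lanosterol. Its HFDfre libraries were at 65.6, 45.0, 40.6, 53.7 and 41.5 CPM, and its HFDfri libraries at 75.2, 77.4, 78.8 and 77.1 CPM. The HFDfri libraries lay within 4 CPM of each other and all above HFDfre. Cyp51 rose 1.57-fold, from a mean of 49.3 ± 10.5 CPM (SD, n = 5) in HFDfre to 77.1 ± 1.46 CPM (SD, n = 4) with HFDfri, and its log2 fold change was 0.65 ± 0.13 (SE, edgeR adjusted p = 0.0467). It passed without HFDfre 1 or HFDfri 1 and missed the threshold without any of the other 7 libraries, with adjusted p-values from 0.0209 to 0.128 over the 9 fits. Its log2 fold change stayed between 0.58 and 0.76 in those fits. Exons of Akap9 on the opposite strand overlap those of Cyp51.

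Hsd17b7 encodes a keto-sterol reductase of the demethylation steps. It was at 30.40, 27.0, 28.1, 29.1 and 26.9 CPM in HFDfre 1 to 5, and at 30.45, 39.9, 42.4 and 36.4 CPM in HFDfri 1 to 4. The groups did not overlap, although HFDfri 1 cleared HFDfre 1 only in the second decimal. Hsd17b7 had a log2 fold change of 0.40 ± 0.10 (SE, edgeR adjusted p = 0.0777). Leaving out each library gave edgeR adjusted p-values from 0.0210 to 0.223, and the threshold was passed only in the fit without HFDfri 1, the lowest of the group.

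Msmo1 encodes the sterol methyl oxidase that acts with Nsdhl and Hsd17b7. It was at 65.1, 41.6, 42.5, 49.0 and 39.5 CPM in HFDfre 1 to 5, and at 41.4, 91.2, 68.8 and 76.7 CPM in HFDfri 1 to 4. HFDfri 1 lay low within the HFDfre range and the other 3 HFDfri libraries above it. The log2 fold change was 0.55 ± 0.21 (SE, edgeR adjusted p = 0.164). Over the 9 fits that left out a library the adjusted p ran from 0.0270, without HFDfri 1, to 0.331, and passed in that 1 fit.

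Dhcr7 encodes the reductase that yields cholesterol itself. Its HFDfre libraries were at 35.4, 26.5, 28.9, 37.5 and 25.8 CPM, and its HFDfri libraries at 35.1, 42.5, 33.5 and 40.7 CPM. HFDfre 1 and HFDfre 4 reached into the HFDfri range. Dhcr7 had a log2 fold change of 0.30 ± 0.13 (SE, edgeR adjusted p = 0.216).

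The other 4 enzymes from lanosterol onward lay closer to 0. The log2 fold changes of Tm7sf2, a sterol reductase, and Nsdhl, the sterol dehydrogenase that removes a carboxyl group, were both 0.19, with SEs of 0.16 and 0.15. Sc5d, a sterol desaturase, was at 0.07 ± 0.11 and Ebp, the sterol isomerase, at -0.08 ± 0.10. Ebp and Sc5d had the highest levels of the 29 genes per length, 80.7 and 36.0 CPM per kb of exon in HFDfre, against 2.35 for Sqle and 1.66 for Lss. Over all 8 enzymes of this segment, 1 passed the adjusted threshold, higher (12.5%, against 0.499% of all tested genes called higher). At an unadjusted p under 0.05, 4 were higher (50%, against 11.4%), and the median log2 fold change was 0.25.

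**Figure D2:**
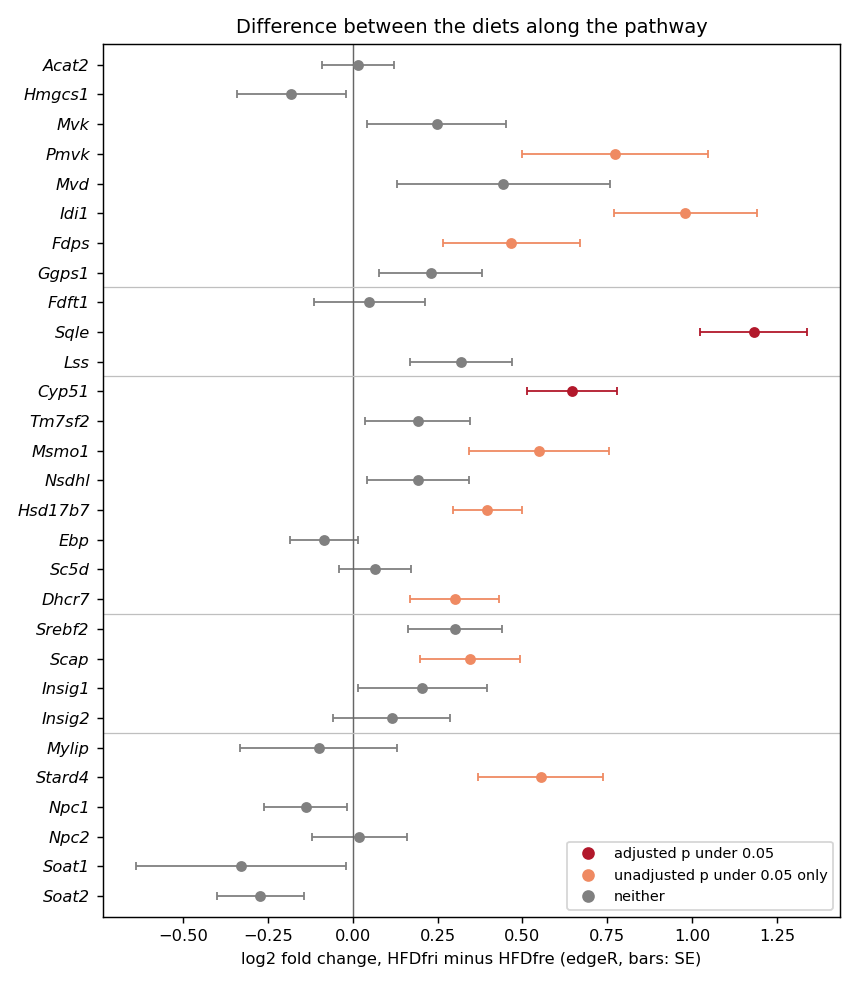
Log2 fold change of each of the 29 genes, HFDfri minus HFDfre, from edgeR, in pathway order, with bars of 1 SE. Dark red marks the 2 genes with an adjusted p under 0.05, orange the 8 with only an unadjusted p under 0.05, and grey the other 19, among them all 6 genes with a negative value.

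**Figure D3:**
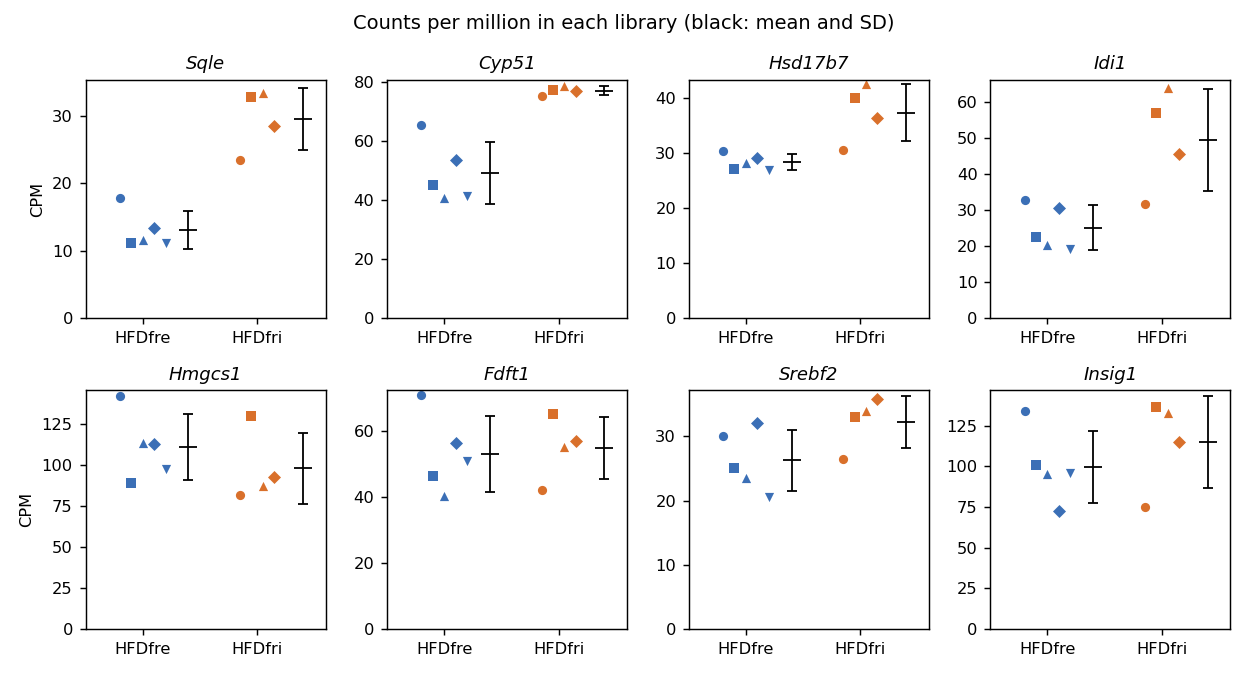
CPM of 8 genes in each library, with the mean and SD of each group in black and axes that start at 0. Symbols give the replicate (circle 1, square 2, upward triangle 3, diamond 4, downward triangle 5). HFDfri 1 is the lowest orange point in all 8 panels, and the groups are separate for Sqle, Cyp51 and Hsd17b7.

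Of the 4 sterol sensing genes, all had a positive log2 fold change, with a median of 0.25. At an unadjusted p under 0.05, 1 was higher, Scap (25%, against 11.4% of all tested genes). Srebf2, which encodes SREBP2 and is itself a target of SREBP2, was at 30.1, 25.1, 23.5, 32.0 and 20.6 CPM in HFDfre 1 to 5 and at 26.5, 33.0, 33.9 and 35.9 CPM in HFDfri 1 to 4. The groups overlapped through HFDfri 1, and the other 3 HFDfri libraries lay above HFDfre. The log2 fold change was 0.30 ± 0.14 (SE), with an unadjusted p of 0.0505 and an edgeR adjusted p of 0.237.

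Scap encodes the escort protein of SREBP2. It was at 54.6, 57.3, 44.1, 54.6 and 44.2 CPM in HFDfre and at 45.3, 72.5, 76.3 and 65.0 CPM in HFDfri. The pattern was that of Srebf2, with HFDfri 1 inside the HFDfre range. The log2 fold change was 0.35 ± 0.15 (SE, edgeR adjusted p = 0.208). Over the 9 fits that left out a library its adjusted p ran from 0.0303, without HFDfri 1, to 0.491, and it too passed in that 1 fit.

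Insig1, which retains SCAP in the endoplasmic reticulum and is a target of SREBP2, was at 134, 101, 95.0, 72.8 and 96.2 CPM in HFDfre and at 75.1, 137, 133 and 115 CPM in HFDfri. Insig2, its relative that is less dependent on SREBP2, was at 122, 111, 122, 150 and 103 CPM in HFDfre and at 123, 162, 85.9 and 156 CPM in HFDfri. Neither separated the groups, since each had an HFDfri library near the bottom of the HFDfre range or below it. Their log2 fold changes were 0.20 ± 0.19 and 0.11 ± 0.17 (SE), with edgeR adjusted p-values of 0.575 and 0.749.

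Of the 6 genes of uptake, transfer and esterification, 4 had negative and 2 positive values, with a median of -0.12, where 50.9% of all tested genes were negative. None of the 4 negative values passed the unadjusted threshold. Only Stard4 of these 6 had an unadjusted p under 0.05 (16.7% higher, against 11.4% of all tested genes). Stard4, a soluble sterol carrier and SREBP2 target, was at 72.7, 51.5, 45.8, 46.3 and 52.5 CPM in HFDfre and at 65.0, 82.7, 109 and 59.1 CPM in HFDfri. HFDfre 1 exceeded HFDfri 1 and HFDfri 4, while the other 4 HFDfre libraries lay below all HFDfri libraries. The log2 fold change was 0.55 ± 0.18 (SE, edgeR adjusted p = 0.127, DESeq2 adjusted p = 0.0395).

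Soat2, the enzyme that esterifies cholesterol in hepatocytes, had the negative value farthest from 0 relative to its error, a log2 fold change of -0.27 ± 0.13 (SE, unadjusted p = 0.0555, edgeR adjusted p = 0.249). Its HFDfre libraries ran from 23.2 to 32.7 CPM and its HFDfri libraries from 20.2 to 27.5 CPM. In the 7 alternatives with an unadjusted p under 0.05, which were counts divided by 4, no filter, at least 10 counts per library, the replicate block and the fits without HFDfre 3, HFDfre 5 or HFDfri 1, the unadjusted p ran from 0.0075 to 0.0493 and the adjusted p from 0.0953 to 0.308. Soat1, its more widely expressed relative, was at -0.33 ± 0.31 on 42 to 137 counts per library, the fewest of the 29 genes. Npc1 and Npc2, which export cholesterol from lysosomes, were at -0.14 ± 0.12 and 0.02 ± 0.14, and Mylip, a ubiquitin ligase for lipoprotein receptors, was at -0.10 ± 0.23.

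The unequal differences along the pathway can be read as ratios of counts within a library, which do not depend on the scaling between libraries. Counts of Sqle over those of Fdft1, the step before it, were 0.251, 0.239, 0.288, 0.236 and 0.219 in HFDfre 1 to 5 and 0.556, 0.503, 0.603 and 0.498 in HFDfri 1 to 4. The ranges did not touch, and HFDfre 1 and HFDfri 1, which stood apart in level, lay inside the ranges of their groups. The mean log2 ratio was 1.13 higher in HFDfri, with SDs of 0.15 in HFDfre and 0.13 in HFDfri.

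The list does not hold every enzyme of the linear pathway, so enzymes that follow each other in it are not always adjacent steps. Of 17 ratios between consecutive listed enzymes, with Ggps1 left out, 4 did not overlap between the groups. These were Sqle over Fdft1, which was higher in HFDfri, and Fdft1 over Fdps, Lss over Sqle and Tm7sf2 over Cyp51, which were lower. Lss over Sqle ran from 1.16 to 1.54 in HFDfre and from 0.677 to 0.888 in HFDfri. Tm7sf2 over Cyp51 ran from 1.40 to 1.76 and from 0.936 to 1.23. Reads from exons of Tm7sf2 could also belong to Vps51, a protein-coding gene on the same strand. Against Hmgcs1, the ratio of Sqle was 0.103 to 0.125 in HFDfre and 0.252 to 0.383 in HFDfri, that of Cyp51 0.357 to 0.507 and 0.596 to 0.918, and that of Idi1 0.180 to 0.272 and 0.388 to 0.735. Sqle over Srebf2 ran from 0.416 to 0.593 and from 0.791 to 0.994, so the level of Sqle per Srebf2 was also higher in each HFDfri library. Insig1 over Srebf2 overlapped, at 2.27 to 4.68 in HFDfre and 2.83 to 4.15 in HFDfri. In all, 6 of the 7 ratios taken outside consecutive pairs did not overlap. The share of ratios without overlap among other genes was not computed. The ratios were chosen after the levels were seen, share genes and libraries, and have no test.

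**Figure D4:**
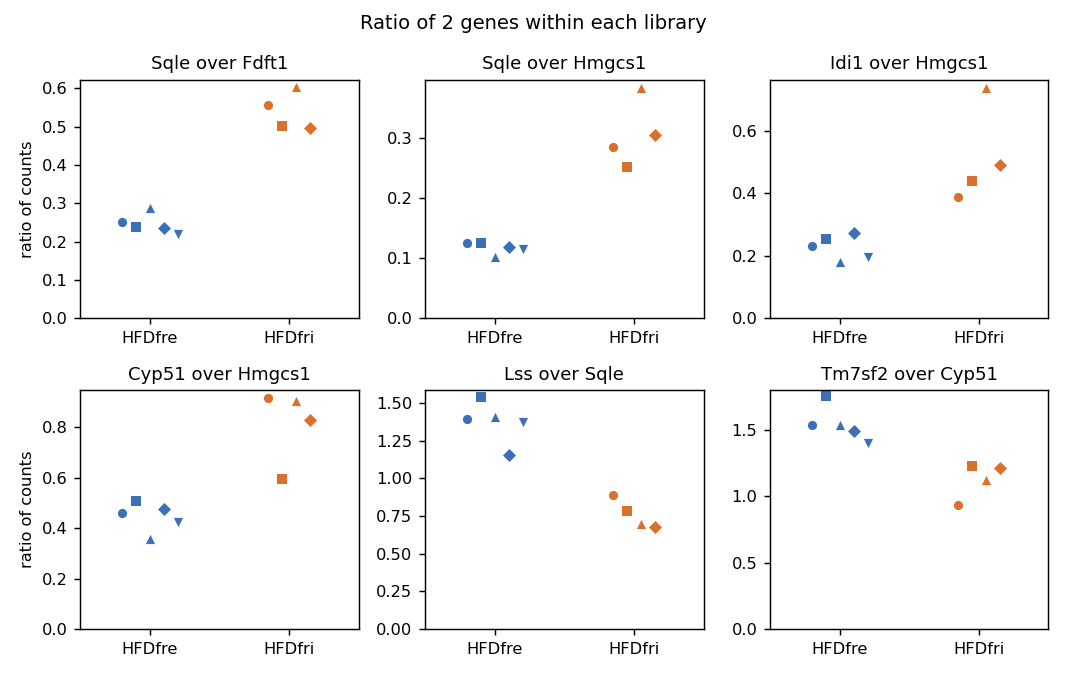
Ratio of the counts of 2 genes within each library for 6 pairs, with axes that start at 0, blue for HFDfre and orange for HFDfri and the same symbols for replicates as in the plot of CPM. The 6 pairs are all among those whose groups did not overlap, so the lack of overlap in every panel follows from that choice. Sqle over Fdft1 was at 0.219 to 0.288 in HFDfre and 0.498 to 0.603 in HFDfri.

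The spread within a group was shared among the genes. HFDfre 1 was the highest library of its group for 21 of the 29 genes and for 17 of the 19 enzymes, and HFDfre 5 was the lowest for 11 genes. HFDfri 1 was the lowest of its group for 18 genes, including 12 enzymes, and HFDfri 2 the highest for 15. The summed level of the 19 enzymes was 900 to 1261 CPM in HFDfre and 1038 to 1287 CPM in HFDfri, with HFDfre 1 at the top of its group and HFDfri 1 at the bottom of its own. The order did not hold for every gene. For Ebp, HFDfri 1 was the highest library of its group, at 204 CPM against 161 to 170 CPM. For Cyp51, HFDfre 1 was the highest and HFDfri 1 the lowest library of its group. Cyp51 varied little over the 4 HFDfri libraries, with an SD of 0.027 on the log2 scale, against 0.49 for Msmo1 and 0.44 for Idi1.

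All 8 hepatocyte markers were detected in every library, with a summed level of 83889 to 93342 CPM in HFDfre and 71145 to 95327 CPM in HFDfri. Most of that sum was Alb. At an unadjusted p under 0.05, 1 of the 8 was higher (12.5%, against 11.4% of all tested genes) and 2 lower (25%, against 9.79%). None passed the adjusted threshold. The log2 fold changes were -0.61 for Apoa2, -0.43 for Ttr and 0.70 for Cps1, at edgeR adjusted p-values of 0.0741, 0.109 and 0.0677. Tat was at 0.72 ± 0.35 (SE, edgeR adjusted p = 0.261). The summed Kupffer cell and macrophage markers were at 65.5 to 144 and 75.4 to 107 CPM, endothelial markers at 62.8 to 78.0 and 54.9 to 86.9 CPM, stellate cell markers at 95.4 to 152 and 80.8 to 139 CPM, and cholangiocyte markers at 25.5 to 46.6 and 23.9 to 47.0 CPM. The 5 lymphocyte markers reported here, among them Ptprc and Cd3e, all had negative log2 fold changes, with a median of -0.82 and 0 at an unadjusted edgeR p under 0.05. They summed to 4.37 to 9.01 and 3.80 to 5.25 CPM, and Cd3e was at 0 in 1 library. Adipocyte markers were at 0.187 to 1.74 and 0 to 0.247 CPM, with 2 of the 4 at 0 in every library. The part of these markers in the sterol gene levels was not tested.

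The surroundings of the pathway were followed in 7 related lists of 71 genes. All 71 were tested, and 44 had a positive log2 fold change (62.0%, against 49.1% of all tested genes). At an unadjusted p under 0.05, 15 were higher (21.1%, against 11.4%) and 7 lower (9.86%, against 9.79%). In each direction 1 passed the adjusted threshold (1.41%, against 0.499% of all tested genes called higher and 0.556% called lower). All 8 genes of SREBP processing and sterol-regulated degradation had positive values (100%, against 49.1%), with a median of 0.19. At an unadjusted p under 0.05, 4 were higher (50%, against 11.4% of all tested genes). Erlin1, a scaffold of that degradation in the endoplasmic reticulum, was at 27.6 to 34.1 CPM in HFDfre and 35.9 to 42.3 CPM in HFDfri, a log2 fold change of 0.36 ± 0.09 (SE, edgeR adjusted p = 0.0806). Mbtps1, the Golgi protease that makes the first cut in SREBP2, was at 30.5 to 37.1 and 39.7 to 42.5 CPM, with 0.26 ± 0.08 (SE, edgeR adjusted p = 0.117). Neither gene overlapped between the groups, which made 2 of the 8 (25%, against 4.02% of all tested genes higher without overlap).

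Of 13 genes of SREBP1 and fatty acid synthesis, 10 were positive (76.9%, against 49.1% of all tested genes), 6 were higher (46.2%, against 11.4%) and 1 was lower (7.69%, against 9.79%) at an unadjusted p under 0.05. Acly, the ATP citrate lyase that supplies acetyl-CoA to both fatty acid and cholesterol synthesis, was at 59.1, 61.0, 52.9, 63.6 and 71.8 CPM in HFDfre and at 89.8, 112, 120 and 74.2 CPM in HFDfri. Acly rose, with a log2 fold change of 0.68 ± 0.14 (SE, edgeR adjusted p = 0.0462), and its groups did not overlap. Acaca, which makes malonyl-CoA, and Fasn, fatty acid synthase, also did not overlap. Their log2 fold changes were 0.69 ± 0.16 and 0.44 ± 0.13 (SE), with edgeR adjusted p-values of 0.0589 and 0.109. Acly, Acaca and Fasn made 23.1% of the list higher without overlap, against 4.02% of all tested genes. Not every gene of the list rose. The gene counted as lower was Elovl5, with a log2 fold change of -0.47 ± 0.18 (SE, edgeR adjusted p = 0.174). Srebf1 itself was at -0.12 ± 0.24 and Scd1 at 0.005 ± 0.33 (SE).

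Among 8 LXR and efflux genes, 3 were positive (37.5%, against 49.1% of all tested genes) and 5 negative. At an unadjusted p under 0.05, 2 were higher (25%, against 11.4%) and 1 was lower (12.5%, against 9.79%). Without overlap, 1 lay higher (12.5%, against 4.02%). Abca1, which loads cholesterol onto apolipoproteins, did not overlap between the groups, at 67.2 to 84.5 CPM in HFDfre and 89.4 to 121 CPM in HFDfri, with a log2 fold change of 0.49 ± 0.11 (SE, edgeR adjusted p = 0.0566). Abcg5, which moves sterols into bile, had the opposite sign, -0.36 ± 0.12 (SE, edgeR adjusted p = 0.116). Of 6 electron donors and partners of the sterol enzymes, 2 were lower at an unadjusted p under 0.05 (33.3%, against 9.79%) and 0 were higher. These were Cyb5a, a cytochrome b5, and Pgrmc1, a partner of cytochromes P450, with log2 fold changes of -0.48 ± 0.14 and -0.25 ± 0.11 (SE). Of 12 genes of isoprenoid branches, 1 was lower (8.33%, against 9.79%) and 1 higher (8.33%, against 11.4%) at an unadjusted p under 0.05. Without overlap, 2 of the 12 lay lower (16.7%, against 3.66%) and 1 higher (8.33%, against 4.02%). Pdss1, of ubiquinone synthesis, was at -0.41 ± 0.16 and Pggt1b, of protein prenylation, at 0.31 ± 0.14. Osbp, an oxysterol-binding transfer protein, was the gene of the 10 of sterol transfer with an unadjusted p under 0.05 (10% higher, against 11.4%). It was also the gene of that list that lay higher without overlap (10%, against 4.02%). Its log2 fold change was 0.38 ± 0.13 (SE, edgeR adjusted p = 0.132).

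Cholesterol synthesis in the liver is known to follow a daily rhythm, so 14 clock genes were read beside it. Dbp, a clock-driven transcription factor, was at 98.9, 85.0, 84.0, 71.0 and 72.9 CPM in HFDfre and at 52.7, 54.9, 41.0 and 41.0 CPM in HFDfri. Dbp fell, from 82.4 ± 11.2 CPM (SD, n = 5) in HFDfre to 47.4 ± 7.46 CPM (SD, n = 4) with HFDfri, and its groups did not overlap. Its log2 fold change was -0.80 ± 0.13 (SE, edgeR adjusted p = 0.0293). Per3, of the negative arm of the clock, was at -0.53 ± 0.15 and Clock, of its positive arm, at 0.58 ± 0.14 (SE), with edgeR adjusted p-values of 0.0917 and 0.0664, and neither overlapped between the groups. At an unadjusted p under 0.05, 1 of the 14 clock genes was higher (7.14%, against 11.4% of all tested genes). At that level 2 were lower (14.3%, against 9.79%), and the other 11 had unadjusted p-values over 0.05. Without overlap, 1 lay higher (7.14%, against 4.02%) and 2 lay lower (14.3%, against 3.66%). The part of these genes in the sterol gene levels was not tested.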

How the data were processed

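Liver RNA of 9 mice was sequenced as paired-end reads. Per the methods and the submitters' processing notes, the reads were aligned with HISAT2 to mm10 and quantified with StringTie. The values the authors deposited are estimated counts per gene, not scaled between libraries. All are whole numbers, and low values pile up (4 occurs 3990 times, 3 occurs 2172 and 5 occurs 1840 times), so count models describe their error only approximately. The labels and the methods name different library kits.

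Columns were matched to samples by the codes in the sample titles, with 0 columns of other samples. Nothing in the labels says more than 1 library per animal, and p-values measure the spread between these libraries. Of 33211 genes, 19775 had a count, and edgeR's filterByExpr by group kept 14220. HFDfri was set against HFDfre by quasi-likelihood F-tests in edgeR 4.0.16 (R 4.3.3, TMM scaling, no covariate), with Benjamini-Hochberg adjustment over all tested genes. The SE is the log2 fold change over the square root of the F statistic. The fit was tested on simulated data. DESeq2 1.42.0, limma 3.58.1 and other scalings, filters and library sets were alternatives. The study named DESeq2.

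Coordinates and exon overlaps come from GENCODE M21 (GRCm38, the assembly of mm10), which held 96.5% of the identifiers. The sequences come from RefSeq. Motifs were chosen after the promoters were seen. The genes, related lists and markers were chosen with earlier results of these data known. Values per library are given for members with an unadjusted p under 0.05 or with no overlap and for the 4 sterol sensing genes, and those of Hmgcs1 were added after its values were seen. At most 3 genes of a related list are named, those with the smallest p. Elovl5, Srebf1 and Scd1 were added after their values were seen. The hepatocyte markers named were chosen after their values were seen. 1 lymphocyte marker is not reported here, and the values of that list leave it out.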

Additional observations from a re-analysis of the deposited data

Results flagged for a closer look

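Each of the 29 genes was searched in each diet group for a library that lay far from the rest of its group, its gap to the nearest library taking a larger share of the group's whole range than Dixon's critical value allows. Of the 58 sets of values, 5 had such a library, where chance gives about 1 in 20, or 2.9.

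HFDfre 1 was the high library in 3 of the 5 cases. Lss was at 24.9 CPM in HFDfre 1 and at 15.4 to 17.1 CPM in the other 4 libraries, Sc5d at 211 against 161 to 171 CPM, and Stard4 at 72.7 against 45.8 to 52.5 CPM. The gaps were 0.817, 0.801 and 0.753 of the ranges. HFDfre 1 had the largest Gm26924 share, 11.1%, and the part of that share in these levels was not tested.

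The other two cases were both in Npc2, the soluble lysosomal cholesterol carrier. HFDfre 4 was at 43.3 CPM, above 33.5 to 35.5 CPM in the rest of HFDfre, with a gap of 0.794. HFDfri 1 was at 25.5 CPM, below 39.7 to 40.9 CPM in the rest of HFDfri, with a gap of 0.923.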

How the results depend on the processing

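Each result was recomputed under 21 alternatives, 9 of which left out a library. The number of the 29 genes called was 2, and became 6 with DESeq2, 1 with no filter and 0 with a replicate block. Within the 2 HFDfre and 3 HFDfri libraries with a Gm26924 share under 3%, a setting chosen after the data were seen, it was 0, and the median log2 fold change was 0.45. Leaving out a library gave 0 to 7 genes, 6 to 15 at an unadjusted p under 0.05 (10 with all), 5 to 11 with a negative value (6 with all) and a median from 0.15 to 0.33. The unadjusted count was 6 with the block. For the related lists the number called was 2, and became 10 with DESeq2, 1 with no filter, 1 when scaled by library totals, and 0 in the block fit, with the Gm26924 share as covariate and within the libraries under 3%, and 0 to 8 when a library was left out. DESeq2 called 1068 of all tested genes against 150 in edgeR. The block called 0 of all tested genes, the fit within the libraries under 3% called 2, and the covariate fit 38. Leaving out a library gave 6 to 1106. Scaling by library totals moved the median of all genes to 0.051.

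Genes near 0 changed sign. Npc2 was at -0.014 with the block and Mylip at 0.18 within the libraries under 3%. Without a library, Acat2 lay between -0.078 and 0.078, Fdft1 between -0.043 and 0.17, Mylip between -0.28 and 0.063, Npc2 between -0.038 and 0.15, Sc5d between -0.00013 and 0.135 and Insig2 between -0.0011 and 0.27. Sqle kept its sign in all 21 alternatives and its call in 16, and Cyp51 in 21 and 11. The replicate numbers do not pair animals in the labels. Same-numbered libraries had correlations of -0.136 to 0.0813, 0 of 4 pairs above 0.1, and the block, which drops HFDfre 5, ended both calls. With 42 to 137 counts per library, Soat1 is the gene whose values depth limits most.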
